A study of Drosophila melanogaster with 31 samples.

Results

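The mitochondrial ribosome of *Drosophila melanogaster* is built from rRNAs made inside the organelle and from proteins encoded in the nucleus, and the genes for these proteins are described here. Members were all genes whose symbol starts with mRpL (large subunit) or mRpS (small subunit), and 73 genes of the 16884 genes, transposons and unnamed sequences in the tables met this rule, 47 of the large and 26 of the small subunit. The 73 are all the symbols of this form in the reference gene table. They were counted through 96 transcripts, and 55 of the 73 genes had 1 transcript.

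The study asked what Modulo (Mod), a nucleolar and chromatin protein related to mammalian Nucleolin, does in transposon silencing and developmental robustness. Messenger RNA was sequenced from 21 libraries in 7 groups of 3. The ovaries were from mod07570/+, modL8/+ and mod07570/L8 flies. The heads were from mod07570/+ and mod07570/L8 flies, and from flies with or without an ectopic eye outgrowth (EEO). mod07570 is a hypomorphic P-element insertion, modL8 is an amorphic allele made by a deletion near the tip of chromosome arm 3R, and mod07570/L8 carries 1 of each. Each heterozygote has 1 mutant copy, so no group analysed here is wild type for mod. The labels list the EEO groups as mod07570/L8, whereas the study's crossing scheme makes them offspring of mod07570/L8 mothers and fathers with the dominant KrIf-1 allele, and within the EEO comparison both groups come from that cross. Whole ovaries and whole heads were used, and no age, sex or number of flies per library was given, so fewer cells of a type and less RNA per cell cannot be told apart. The libraries are stated to be biological replicates, and p-values measure only the spread between them.

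Mitochondrial ribosomes translate the few messages of the mitochondrial genome, which code for core subunits of the respiratory chain and of ATP synthase. They descend from bacterial ribosomes, so that many of their proteins have bacterial relatives while others are found only in mitochondria. Eggs receive their mitochondria from the mother, and the germline of the ovary makes very many of them for the embryo. Below, proteins with a number used for bacterial ribosomal proteins are called bacterial-type, 28 of the large and 14 of the small subunit, and the remaining 19 and 12 are called mitochondria-specific. This split and the subunit follow the gene's symbol alone, and in mammals the proteins named S18A and S30 sit in the large subunit.

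The libraries held between 12820086 and 22695680 estimated counts. mod itself matched the labels, at 334 ± 8.64 counts per 1000000 of the library's counts (cpm) in mod07570/+, 456 ± 6.63 in modL8/+ and 11.3 ± 1.01 in mod07570/L8 ovaries (SD, n = 3), and at 81.1 ± 35.5 and 18.9 ± 0.970 in mod07570/+ and mod07570/L8 heads. Photoreceptor and other head markers summed to at most 4.42 cpm in any ovary library and to at least 10530 cpm in any head library. The second mod07570/+ head library stood apart, with 296 cpm of germline markers against 16.1 and 26.0 in its replicates. The EEO heads also differed from the other heads in fat-body yolk protein RNA, on average 105481 cpm in mod07570/L8 and 105872 cpm in mod07570/+ heads but 21.1 and 15.5 cpm in heads with and without EEO, and in the male X-chromosome RNAs roX, at most 4.55 cpm in any mod07570/L8 or mod07570/+ head and at least 699 cpm in any EEO-cross head. For this reason the EEO groups were tested only against each other, and their levels are set beside the other groups without a test.

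All 73 members were expressed in both tissues, and ovaries held more of their RNA than heads in every library. Summed over the members, mod07570/+ ovaries had 3076, 3092 and 3154 cpm, modL8/+ ovaries 3201, 3211 and 3175, and mod07570/L8 ovaries 3236, 3198 and 3141. In this sum modL8/+ ovaries lay above mod07570/+ ovaries without overlap, and mod07570/L8 ovaries overlapped both. mod07570/L8 heads had 1027, 985 and 1036 cpm, mod07570/+ heads 915, 1287 and 1123, heads with EEO 1783, 1391 and 1325, and heads without EEO 1512, 1461 and 1438. Every ovary library was above every head library, and the replicates of mod07570/+ heads and of heads with EEO were spread most widely.

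**Figure D1:**
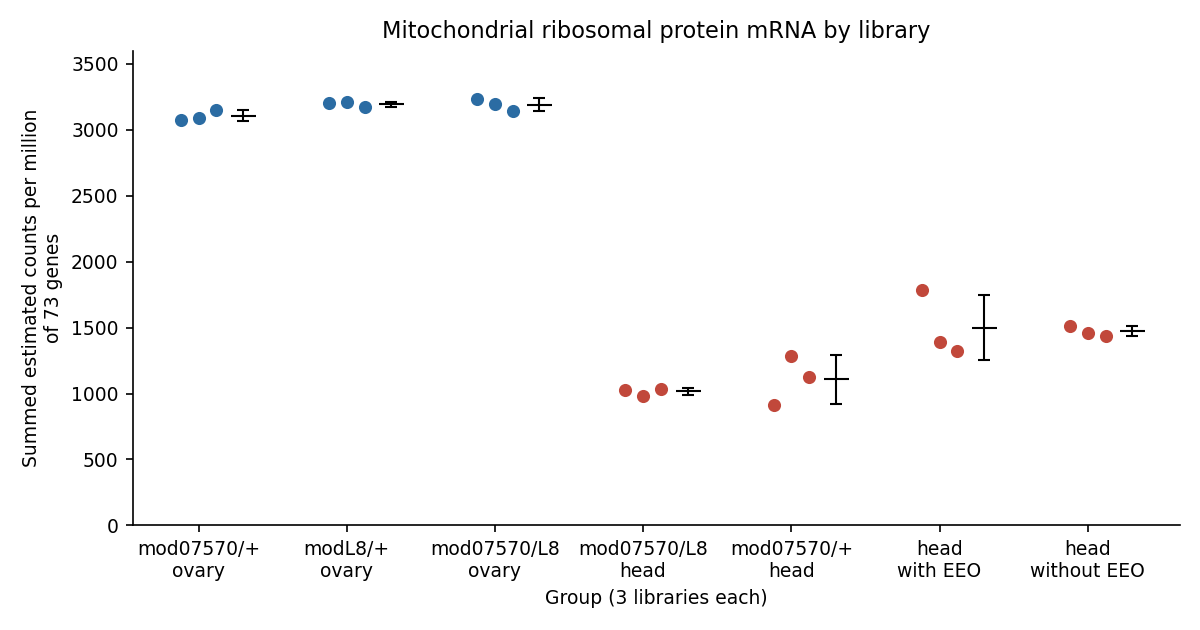
Summed cpm of the 73 mitochondrial ribosomal protein genes in each of the 21 libraries, by group. Points are libraries, and the 9 ovary libraries lie between 3076 and 3236 cpm while the 12 head libraries lie between 915 and 1783.

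Levels of different members were compared in TPM, the share of transcripts after division by transcript length, scaled to 1000000. In mod07570/+ ovaries the members spanned an 8.65-fold range around a median of 87.7 TPM, and the upper quartile was 1.46 times the lower one. The highest was mRpL12, the stalk protein that receives translation factors, at 320 ± 9.53 TPM (SD, n = 3). Next were mRpS5, which lies near the mRNA entry channel, at 285 ± 7.66, mRpL33 at 191 ± 9.85, mRpS21 at 181 ± 15.9 and mRpS14 at 169 ± 5.02. Neighbours in this order from mRpL33 to mRpS14 did not differ beyond their spread, whereas mRpL12, mRpS5 and mRpL33 did not overlap. By cpm, which is not per length, only mRpL12 and mRpS5 of these stayed among the 5 highest. The transcripts of mRpL33, mRpS21 and mRpS14 are short, at 349, 422 and 476 nucleotides. The fitted effective length of mRpL33 ran from 44.9 to 59.2 in these libraries. How far such fitted lengths shape this order was not tested.

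At the low end of the same order were mRpS31 at 37.0 ± 1.5 TPM, mRpL2 at 46.2 ± 4.37, mRpL11 at 52.2 ± 4.26, mRpL19 at 54.8 ± 1.86 and mRpS22 at 55.3 ± 2.18. mRpS31 and mRpS22 are mitochondria-specific, mRpL2 is the relative of a protein at the peptidyl transferase centre, mRpL11 belongs to the base of the stalk and mRpL19 lies at the subunit interface in bacteria. Neighbours in this order from mRpL2 to mRpS22 were within their spread of each other, and mRpS31 was below them. Per gene, large-subunit members averaged 0.913 ± 0.00212 times the TPM of small-subunit members in mod07570/+ ovaries, 0.909 ± 0.00873 in modL8/+ and 0.896 ± 0.0105 in mod07570/L8. In heads it was 0.794 ± 0.0278 in mod07570/+ and 0.797 ± 0.0262 in mod07570/L8, below the ovaries, and 0.829 ± 0.0245 without EEO and 0.867 ± 0.0643 with EEO, where 1 library, at 0.939, lay above every ovary library.

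The order of the levels was much the same among ovaries and differed between tissues. Across the 73 genes, which are not independent replicates, Spearman's rho of mean TPM was 0.916 to 0.975 between ovary groups, 0.867 to 0.984 between head groups, and 0.515 to 0.660 between an ovary and a head group. mRpS5 was the highest member in all 4 head groups, with 175 ± 20.4 TPM in mod07570/+ heads. mRpS10, in place 8 of 73 in mod07570/+ ovaries with 152 ± 2.51 TPM, was in place 59 in mod07570/+ heads with 22.6 ± 9.77.

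The comparison of mod07570/L8 with mod07570/+ ovaries asks what changes when the ovary lacks nearly all mod RNA. Members were tested with edgeR's quasi-likelihood test on TMM-scaled estimated counts of all features with at least 1 cpm in 3 libraries, and p-values were adjusted over all features by Benjamini-Hochberg with a threshold of 0.05. With this scaling 34 of the 73 members rose, 2 fell and 37 did not pass the test. These were 46.6% and 2.74% of the members, beside 38.5% that rose and 39.1% that fell among all 8295 features tested. The members' median log2 fold change was 0.13 against -0.00 over all features, and 60 of the 73 had a positive value.

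This split depended on the scaling. Scaled by total counts instead, 21 members rose and 12 fell, with a median of 0.04 against -0.09 over all features, where 32% rose and 47.4% fell. In both cases the members' median stood 0.137 above that of all features. In TPM, which also takes the fitted effective lengths into account, the median member had 0.934 times its mod07570/+ level, and 50 of the 73 were lower, beside a median of 0.856 for all features. In TPM 10 members had every mod07570/L8 library above and 31 had every one below the mod07570/+ libraries, beside 24.3% and 57.9% of features.

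The changes were small. The 34 rises ran from 1.07 to 2.16-fold with a median of 1.21-fold, 32 of them exceeded 1.1-fold and 1 exceeded 1.5-fold. Without the first or the second mod07570/L8 library no member fell. Without the first or the third mod07570/+ or the third mod07570/L8 library 1 did. In these fits 2976 to 3034 of 8066 to 8131 features fell. Of the 47 large-subunit genes 20 rose and 2 fell, and of the 26 small-subunit genes 14 rose and none fell. Beside these counts and those by class, 38.5% of all features rose and 39.1% fell. Of the bacterial-type genes 12 of 28 large and 7 of 14 small rose, and of the mitochondria-specific ones 8 of 19 large and 7 of 12 small.

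Of the 34 rises, 18 passed the threshold in each of 12 alternative analyses, and neither fall did. The alternatives were other scaling, test, filter or kind of count, the replicate block, and each library left out. For the 18 members with over 1 transcript, unique counts held only 0.824% to 18.1% of the estimated counts over all libraries. Among the rises kept in every alternative, only mRpS5 has over 1 transcript. In the large subunit these were mRpL2, mRpL9, mRpL19, mRpL20, mRpL24, mRpL34, mRpL40, mRpL44, mRpL51 and mRpL54. mRpL44 carries a domain like that of the nuclease RNase III. In the small subunit they were mRpS5, mRpS18C, mRpS22, mRpS24, mRpS28, mRpS31, mRpS33 and mRpS35. The share of all features kept in every alternative is not given here, so these 18 have no background beside them.

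**Figure D2:**
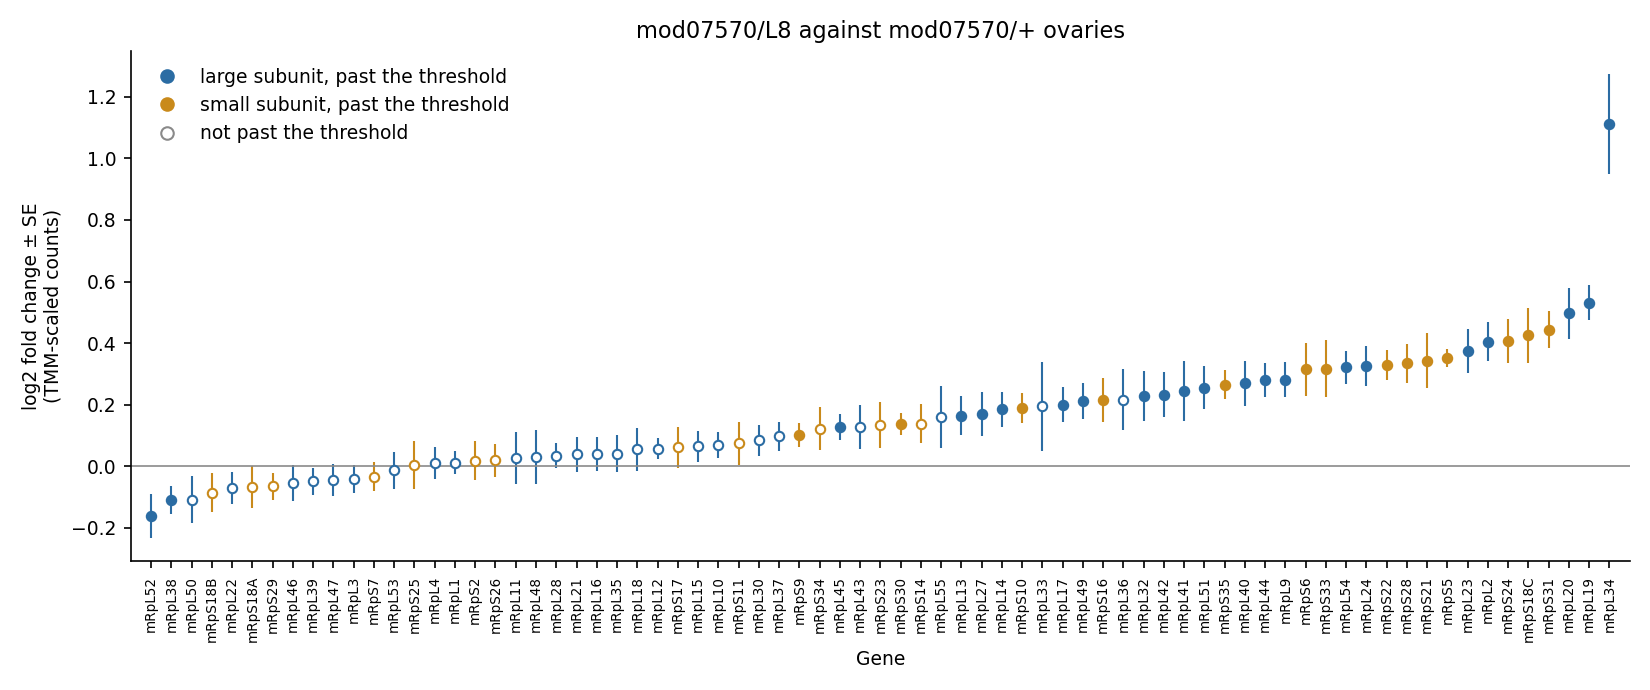
Log2 fold change of each of the 73 members in mod07570/L8 against mod07570/+ ovaries, with TMM scaling, marked by whether the gene passed the threshold (34 higher, 2 lower). mRpL34 at 1.11 lies apart from the other members, which run from -0.16 to 0.53, and total-count scaling shifts every value down, giving 21 higher and 12 lower.

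mRpL34, a short bacterial-type protein of the large subunit, showed the greatest change. It had 3.39, 3.96 and 5.14 cpm in mod07570/+, 6.12, 6.93 and 5.14 in modL8/+ and 9.76, 8.55 and 7.28 in mod07570/L8 ovaries. The mod07570/L8 libraries lay above all 6 heterozygous ones, and modL8/+ lay between the other groups, meeting mod07570/+ at 5.14. The log2 fold change was 1.11 ± 0.16 (SE, adjusted p = 8.69e-07, edgeR). It has the shortest transcript of the members, 327 nucleotides, and its fitted effective length ran from 36.5 to 61.0 among these libraries. In TPM it averaged 116, 149 and 182 in the 3 genotypes in the same order.

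mRpL19, the subunit-interface protein named above, had 34.5, 36.4 and 36.7 cpm in mod07570/+, 41.2, 38.9 and 41.2 in modL8/+ and 51.8, 47.7 and 46.7 in mod07570/L8. The 3 genotypes did not overlap. Its log2 fold change was 0.53 ± 0.06 (adjusted p = 2.92e-09). mRpL20 has a bacterial relative that acts early in the assembly of the large subunit. It had 19.0, 19.3 and 21.3, then 22.5, 24.7 and 22.9, then 28.8, 27.6 and 22.8 cpm in the same order of genotypes. Here the third mod07570/L8 library fell within the range of modL8/+ and above all of mod07570/+, with a log2 fold change of 0.50 ± 0.08 (adjusted p = 7.21e-06).

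In the small subunit, the mitochondria-specific mRpS31 had 31.3, 30.1 and 32.9 cpm in mod07570/+, 32.9, 38.3 and 38.6 in modL8/+ and 43.0, 38.5 and 39.0 in mod07570/L8. The mod07570/L8 libraries were all above mod07570/+, and 1 of them was within the range of modL8/+. Its log2 fold change was 0.44 ± 0.06 (adjusted p = 3.43e-07). mRpS18C, 1 of 3 fly genes related to bacterial S18, had 13.2, 13.8 and 14.5, then 16.1, 14.4 and 15.1, then 17.1, 17.4 and 17.9 cpm, with mod07570/L8 above all other libraries (adjusted p = 0.000107). mRpS24 also separated mod07570/L8, at 26.9, 25.1 and 27.1 cpm, from mod07570/+ at 20.4, 21.4 and 21.6 and from modL8/+ at 21.1, 23.8 and 23.6 (adjusted p = 1.21e-05).

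The 2 members that fell, mRpL52 and mRpL38, are mitochondria-specific proteins of the large subunit. mRpL52 had 26.6, 24.9 and 26.3 cpm in mod07570/+, 29.0, 23.6 and 27.2 in modL8/+ and 21.3, 21.7 and 22.2 in mod07570/L8, which lay below all heterozygous libraries. Its log2 fold change was -0.16 ± 0.07 (adjusted p = 0.0406). mRpL38 had 67.2, 66.2 and 68.8, then 61.3, 67.7 and 70.6, then 59.4, 56.3 and 60.2 cpm, again lowest in mod07570/L8 without overlap. After TMM scaling, which the test used, its mod07570/L8 libraries were not all below the heterozygous ones. On that scale its log2 fold change was -0.11 ± 0.04 (adjusted p = 0.0285, edgeR). Neither fall passed the threshold in DESeq2.

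**Figure D3:**
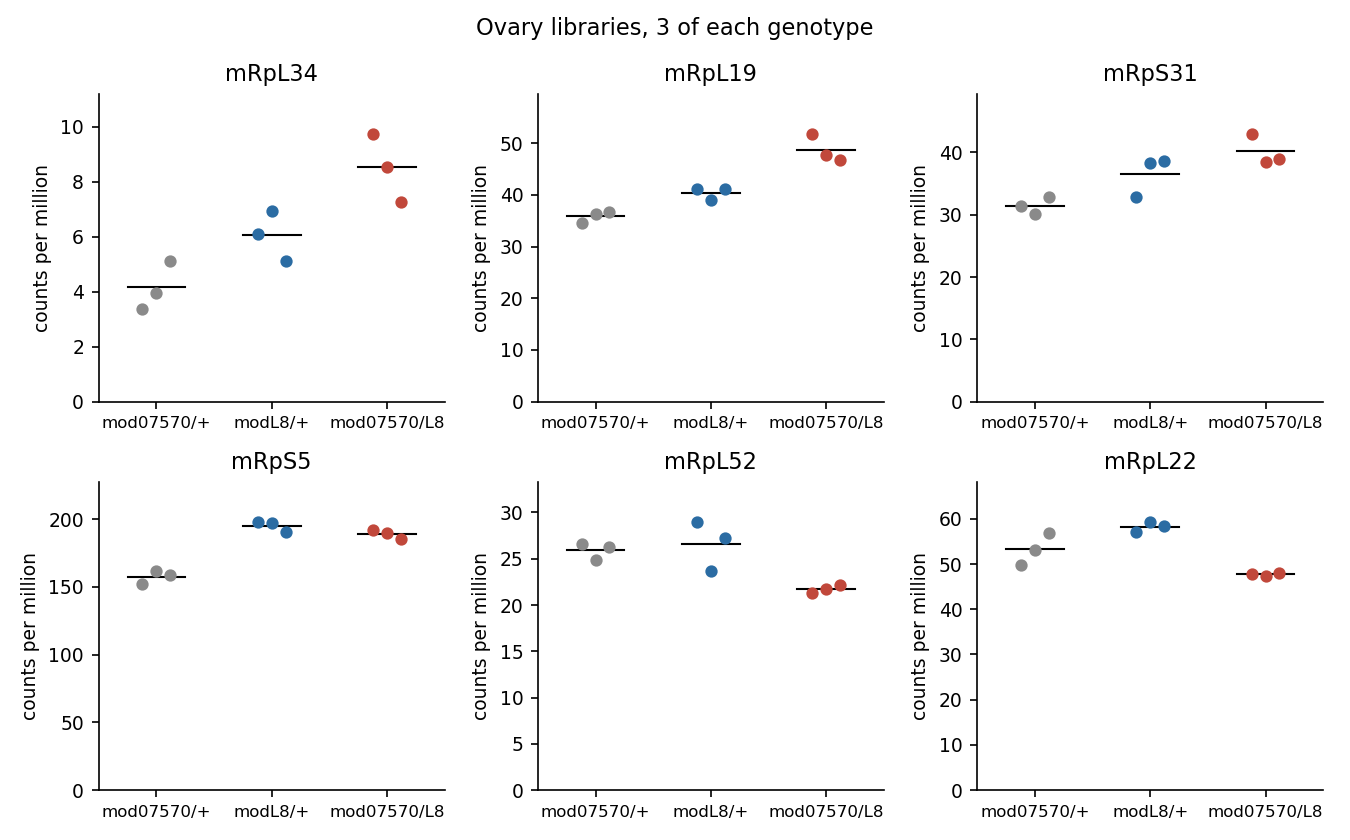
Cpm of mRpL34, mRpL19, mRpS31, mRpS5, mRpL52 and mRpL22 in the 9 ovary libraries, with a black line at each group's mean. mRpL34, mRpL19 and mRpS31 climb from mod07570/+ over modL8/+ to mod07570/L8, mRpS5 is high in both groups with the modL8 allele, and mRpL52 and mRpL22 are lowest in mod07570/L8.

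Against both heterozygotes at once, 28 members had their 3 mod07570/L8 libraries above all 6 heterozygous ovary libraries after TMM scaling and 1, mRpL52, had them below, where 31.5% of 8340 features were above and 31.4% below. With total-count scaling the counts were 10 above and 8 below, against 25.3% and 39.3% of features. Under total-count scaling the members above and below were thus nearly equal in number.

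The markers of late follicle cells, which secrete the eggshell, moved with genotype in these libraries. Their summed level was 3808 ± 12.1 cpm in mod07570/+, 8525 ± 134 in modL8/+ and 24056 ± 339 in mod07570/L8 ovaries, all 13 rose in each of the 3 comparisons between ovary genotypes, and none was at 0 in all ovary libraries. Yolk protein RNA followed the same order, at 2360, 4222 and 6897 cpm. The summed germline markers were 2388, 2516 and 2284 cpm, and in mod07570/L8 against mod07570/+ 4 of the 6 rose and 1 fell, with log2 fold changes from -0.93 to 1.78. Muscle markers summed to 49.9 ± 0.609 cpm in mod07570/+, 33.4 ± 3.98 in modL8/+ and 99.1 ± 4.75 in mod07570/L8 ovaries. Of the 4, 3 were tested, and these rose in mod07570/L8 against mod07570/+ (0.89 to 1.17), fell in modL8/+ against mod07570/+ (-0.59 to -0.50) and rose in mod07570/L8 against modL8/+ (up to 1.76). The part of all these markers in the members' changes was not tested.

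modL8/+ against mod07570/+ ovaries compares the heterozygotes, each with 1 mutant allele. Of the members 12 rose and 1 fell, with a median log2 fold change of 0.05, where 21.7% of 8052 features rose and 20.5% fell. Total-count scaling gave 9 and 2, beside 18.5% and 24.7% of features, and DESeq2 6 and 1, beside 17.5% and 17.1%. Leaving out a library lowered the rises to 5 when it was the first or second mod07570/+ or the second modL8/+ library. These fits called 1461, 1461 and 1502 features higher, of 7903, 7902 and 7990 tested. mRpS5 was the clearest, at 152, 162 and 159 cpm in mod07570/+, 198, 197 and 191 in modL8/+ and 192, 190 and 185 in mod07570/L8. Both groups with modL8 lay above mod07570/+ without overlap and came close to each other, with log2 fold changes from mod07570/+ of 0.33 ± 0.03 (adjusted p = 4.93e-09) in modL8/+ and 0.35 ± 0.03 (adjusted p = 5.7e-11) in mod07570/L8, which share the mod07570/+ libraries.

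mRpL34 and mRpL55 were the other members with the greatest rises between the heterozygotes, at log2 fold changes of 0.55 ± 0.18 (adjusted p = 0.0166) and 0.32 ± 0.11 (adjusted p = 0.0234). mRpL55, a mitochondria-specific protein, had 11.8, 13.6 and 15.2 cpm in mod07570/+ and 15.8, 19.6 and 14.6 in modL8/+, which overlapped. Each of these rises missed the threshold in 4 of the 12 alternatives. mRpS26, also mitochondria-specific, was the fall, with 54.1, 49.3 and 55.4 cpm in mod07570/+ and 44.1, 47.2 and 44.7 in modL8/+ (log2 fold change -0.20 ± 0.06, adjusted p = 0.00504). The groups did not overlap, and mod07570/L8, at 51.3, 51.8 and 47.8 cpm, was above modL8/+ and overlapped mod07570/+.

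mod07570/L8 against modL8/+ ovaries shares its libraries with both comparisons above. It gave 32 rises and 5 falls among the members with TMM scaling, where 36.4% of 8191 features rose and 36.3% fell. With total-count scaling it gave 12 rises and 13 falls, where 30.1% rose and 44.3% fell, so the members' median changed from 0.09 to 0.02 beside -0.00 and -0.07 for all features. mRpL34 rose by a log2 fold change of 0.56 ± 0.15 (adjusted p = 0.00195) and mRpL19 by 0.34 ± 0.05 (adjusted p = 7.92e-06). mRpS6, a bacterial-type protein, had 20.5, 19.1 and 20.0 cpm in modL8/+ and 24.6, 27.6 and 21.4 in mod07570/L8, without overlap (0.38 ± 0.09, adjusted p = 0.000485). Its mod07570/+ libraries, at 19.9, 20.1 and 23.0 cpm, overlapped both.

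The 5 falls were mRpL22, mRpL52, mRpL53, mRpS29 and mRpL38. Without the first mod07570/L8 library 3 falls were left, where 2769 of 7954 features fell. mRpL22, the relative of a protein that lines the bacterial exit tunnel, had 57.2, 59.2 and 58.3 cpm in modL8/+ and 47.8, 47.3 and 48.0 in mod07570/L8, without overlap (log2 fold change -0.22 ± 0.05, adjusted p = 0.000191). In mod07570/+ it had 49.9, 53.0 and 56.8 cpm, between the others, and it had risen in modL8/+ against mod07570/+. mRpL52 fell by 0.22 ± 0.08 on the log2 scale (adjusted p = 0.0176) and mRpL53 by 0.15 ± 0.05 (adjusted p = 0.0133). The counts of mRpL53 could not be separated from those of CG33155, since none of its fragments was unique to it in any library, so its values may belong to either gene. mRpS29, the fly relative of human DAP3, a GTP-binding protein of the small subunit, fell by 0.14 on the same scale.

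tko and bonsai encode the relatives of bacterial S12 and S15 in the small subunit and were left out by the rule, since their symbols differ. tko, at the decoding centre, had 54.0, 57.7 and 57.9 cpm in mod07570/+, 48.0, 41.3 and 44.1 in modL8/+ and 55.9, 56.0 and 54.3 in mod07570/L8. modL8/+ was below both other groups without overlap, and the log2 fold change was -0.33 ± 0.06 for modL8/+ against mod07570/+ (adjusted p = 3.22e-05) and 0.39 ± 0.05 for mod07570/L8 against modL8/+ (adjusted p = 1.2e-06). Against mod07570/+, mod07570/L8 gave 0.06 (adjusted p = 0.255), which turned to -0.03 with total-count scaling. bonsai rose by 0.13 ± 0.04 in mod07570/L8 against mod07570/+ (adjusted p = 0.00536).

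Other genes of mitochondrial gene expression did not share 1 direction in mod07570/L8 against mod07570/+ ovaries. In that comparison 38.5% of all features rose and 39.1% fell, or 32% and 47.4% with total-count scaling. Of 10 mitochondrial translation factors 5 rose and 1 fell, or 3 and 2 with total-count scaling. mEFTu1, which brings aminoacyl-tRNA to the ribosome, rose by 0.53 ± 0.03 (log2, adjusted p = 1.21e-15), and mRF1, a release factor, had -0.16 ± 0.07 (adjusted p = 0.0279). Of 15 mitochondrial aminoacyl-tRNA synthetases, which load tRNAs, 4 rose and 6 fell, with PheRS-m at 0.47 ± 0.07 (adjusted p = 9.56e-07) and AspRS-m at -0.42 ± 0.03 (adjusted p = 4.88e-13). Of 9 genes for mitochondrial DNA maintenance and transcription 4 rose and 4 fell, among them PolG2, the accessory subunit of the DNA polymerase, at 0.92 ± 0.12 (adjusted p = 1.72e-07) and mtDNA-helicase at -0.36 ± 0.06 (adjusted p = 3.13e-06).

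The nuclear regulators ewg, Ets97D and srl, relatives of mammalian NRF-1, GABP and PGC-1, had log2 fold changes of 0.48 ± 0.04 (adjusted p = 3.91e-12), -0.37 ± 0.04 (adjusted p = 2.71e-08) and -0.32 ± 0.02 (adjusted p = 2.24e-12) in the same comparison. In contrast, of 87 cytoplasmic ribosomal protein genes tested (of 93) 85 rose and 1 fell with a median of 0.30, and of 63 nuclear oxidative phosphorylation genes tested (of 88) 51 rose and 2 fell with a median of 0.22. With total-count scaling these were 81 and 2, and 37 and 2. The members' median of 0.13 was thus below that of both lists in value, and the difference was not tested.

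**Figure D4:**
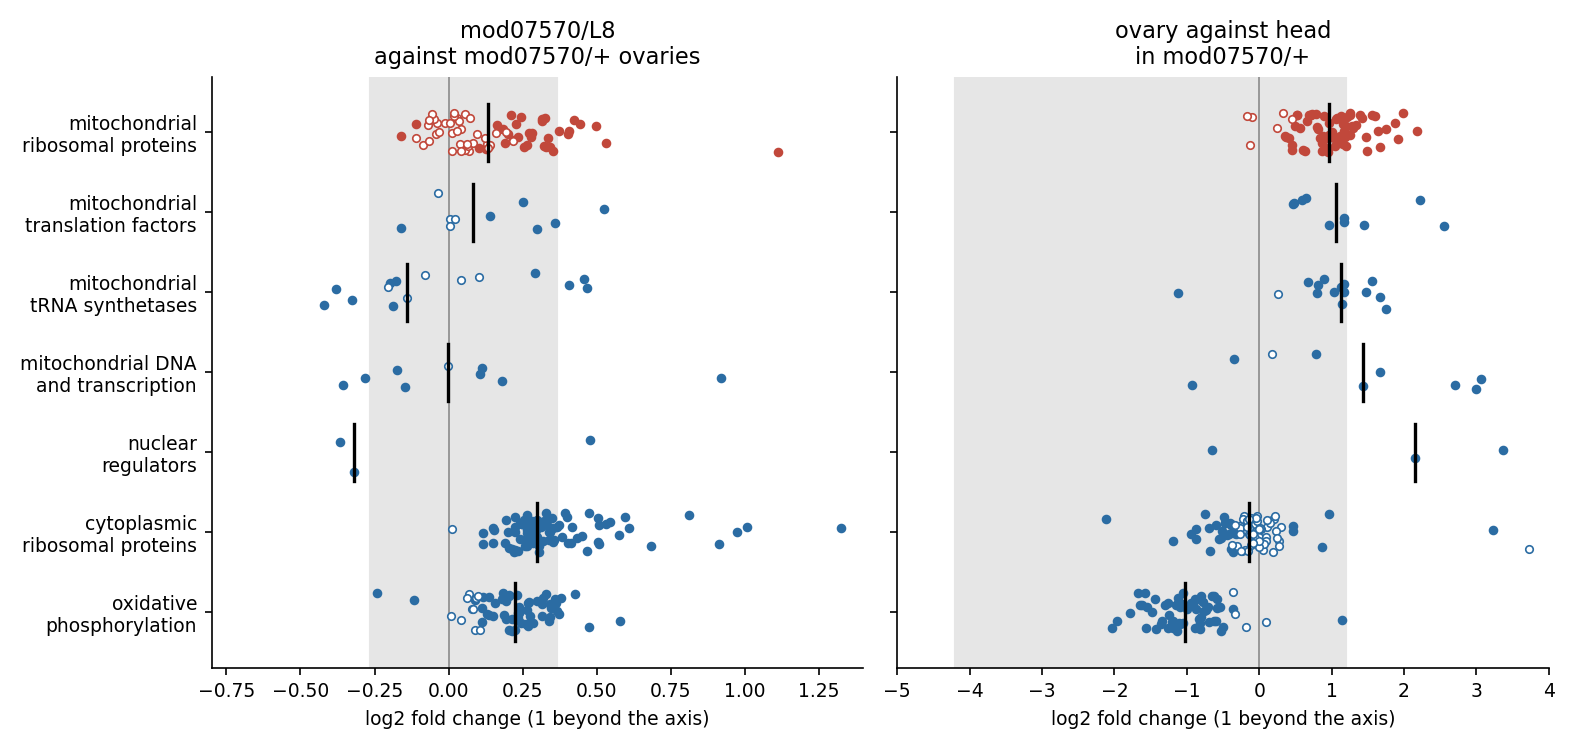
Log2 fold change of each gene in the members and in related lists, for mod07570/L8 against mod07570/+ ovaries and for ovary against head in mod07570/+, with TMM scaling. Filled points passed the threshold, black bars are list medians, the grey band is the interquartile range of all features and 1 gene per panel lies beyond the axis. The members' medians are 0.13 and 0.96, and total-count scaling gives 0.04 and 1.58.

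By position, members lie on all major arms, 12 on 2L, 12 on 2R, 17 on 3L, 21 on 3R and 11 on X. In the order of the reference table mod is followed by 1 gene at the tip of 3R, and no member lay beyond it or within 50 genes of it, the nearest being mRpL32 at 85 genes. On 3R, 13 of the 21 members rose and none fell in mod07570/L8 against mod07570/+ ovaries, where 36.2% of all features on that arm rose and 42.3% fell. The rises on the other arms were 4 of 12 on 2L, 6 of 12 on 2R, 8 of 17 on 3L and 3 of 11 on X, where 35.5%, 38.3%, 37.4% and 42.7% of all features rose. The 2 members that fell lie on 2R and X, where 39.6% and 35.6% of features fell. Shorter transcripts had somewhat higher values, with a median log2 fold change of 0.22 for the 8 members under 500 nucleotides. The other 65 had 0.10. With effective lengths as offsets these medians were closer, at 0.18 and 0.11.

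In heads, mod07570/L8 against mod07570/+ gave no member past the threshold in edgeR, and DESeq2, which called 6.48% of features, also called 0. At an unadjusted p under 0.05 there were 7, where 16.4% of 9999 features reached that level, and 1.59% and 1.94% of features rose and fell after adjustment. The members' median log2 fold change was -0.06 against -0.02 for all features, and the values ran from -0.67 for mRpL53 to 0.71 for mRpL34. Without the second mod07570/+ head library, the library with germline RNA, the median was 0.012. Members varied more here than in ovaries, with a median coefficient of variation of 19.5% in mod07570/+ and 8.31% in mod07570/L8 heads against 3.95% and 4.17% in the ovaries of these genotypes.

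mRpL34 in heads had 2.04, 1.74 and 1.83 cpm in mod07570/L8 and 0.850, 1.41 and 1.33 in mod07570/+, without overlap (log2 fold change 0.71 ± 0.25, adjusted p = 0.211). mRpL53, counted together with CG33155, had 6.93, 7.53 and 9.02 against 8.42, 16.1 and 14.9 cpm, which overlapped (-0.67 ± 0.21, adjusted p = 0.166). Of the related lists only mTerf3, a factor of the mTERF family that acts in mitochondrial gene expression, passed the threshold, with a log2 fold change of 1.04 ± 0.19 (adjusted p = 0.0306), which was lost in 6 of the 12 alternatives.

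Heads with EEO against heads without EEO also gave no member past the threshold, in edgeR or in DESeq2, which called 2.51% of features. At an unadjusted p under 0.05 there was 1 member, mRpL55, where 9.41% of 10137 features reached that level, and after adjustment 0.493% of features rose and 0.0296% fell. The members' median was 0.08 against 0.01 for all features, and the values ran from -0.23 for mRpL11 to 0.61 for mRpL33. mRpL33 had 11.4, 5.68 and 4.89 cpm with EEO and 5.57, 4.36 and 4.85 without, so that its mean rested on the first EEO library. Leaving that library out moved the members' median from 0.076 to -0.093.

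The tissues differed far more than the genotypes. In mod07570/+ flies 67 of the 73 members were higher in ovary than in head, none was lower and 6 did not pass the test, where 42.3% of 10301 features were higher and 47.2% lower. The members' median log2 fold change was 0.96 against -0.14 for all features, and 58 exceeded 1.5-fold and 35 exceeded 2-fold. Scaling moved all features, by 0.62 with total counts and by -0.19 with DESeq2, and the members' median stood 1.1 above that of all features under each of these scalings. Without 1 of the head libraries, which also left 8124 to 8128 features to test, it stood 0.45 to 0.54 above, with 51 to 57 members higher beside 43.7% to 47.5% of features and 3 lower beside 40.1% to 41.5%. With total-count scaling all 73 were higher, beside 51.4% of features, and with DESeq2 61 were higher and 3 lower, beside 38.4% and 50.5%. In every member, in cpm and also in TPM, the 3 ovary libraries lay above the 3 head libraries, as did 53.3% of features in cpm and 53% in TPM.

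mRpS10, a bacterial-type protein, differed most, with 155, 152 and 150 TPM in mod07570/+ ovaries and 15.6, 33.7 and 18.4 in the heads. Its log2 fold change was 2.18 ± 0.23 (adjusted p = 0.000144). mRpL12, the stalk protein, had 309, 327 and 324 TPM against 39.9, 75.5 and 46.4 (1.99 ± 0.19, adjusted p = 9.68e-05), and mRpL39, a mitochondria-specific protein, 106, 115 and 110 TPM against 14.0, 24.1 and 18.0 (1.92 ± 0.15, adjusted p = 3.21e-05). In each of these genes the second head library, the one with germline RNA, was the highest of the heads.

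The 6 members that did not pass were mRpS5, mRpS9, mRpL28, mRpL2, mRpL41 and mRpL40. mRpS5 had 294, 279 and 282 TPM in ovaries and 153, 178 and 193 in heads, without overlap, and a log2 fold change of -0.17 ± 0.09 after TMM scaling. mRpS9 and mRpL28, at -0.13 and -0.10, were also negative on that scale although their ovary libraries lay above their head libraries in cpm. These 3 were the members called lower by DESeq2. They were also called lower when any 1 head library was left out, which left 51 to 57 higher and medians of 0.558 to 0.664; with 2 head libraries the filter drops features found only in heads, and 8124 to 8128 were tested.

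**Figure D5:**
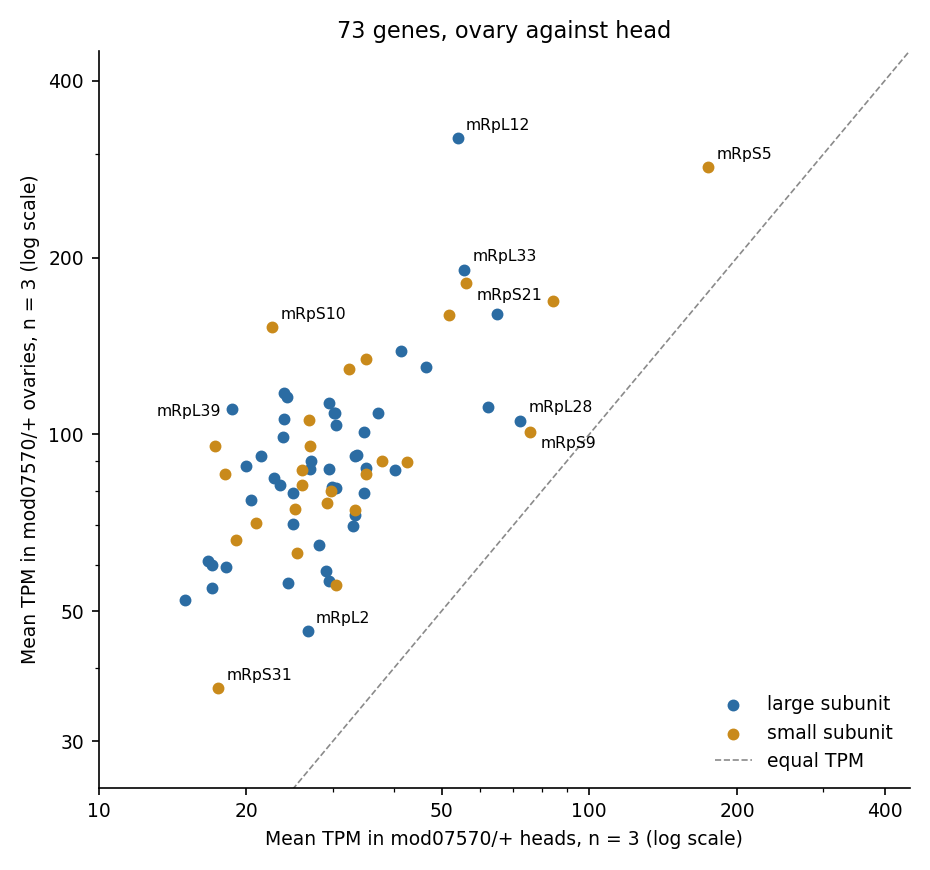
Mean TPM of each of the 73 members in mod07570/+ ovaries and in mod07570/+ heads, on log axes. All 73 are higher in the ovary, with mRpS10 at 152 and 22.6 TPM farthest from equal levels and mRpS5 at 285 and 175 TPM among the nearest.

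With TMM scaling the related lists did not share 1 direction between ovary and head, where 42.3% of 10301 features were higher and 47.2% lower. All 10 mitochondrial translation factors were higher in ovary, as were 13 of 15 mitochondrial aminoacyl-tRNA synthetases with 1 lower. So were 6 of 9 genes of mitochondrial DNA maintenance and transcription with 2 lower, and both tko (1.46 ± 0.15, log2) and bonsai (1.53 ± 0.14). Total-count results for these genes are not given here. Nuclear oxidative phosphorylation genes took the other direction, with 1 higher and 59 lower of 64 tested and a median of -1.02, or 3 and 32 with a median of -0.40 under total-count scaling. Cytoplasmic ribosomal protein genes gave 5 higher and 24 lower of 87, median -0.13, which turned to 62 and 3, median 0.50, with total-count scaling. That scaling called 51.4% of all features higher and 39.6% lower. Muscle markers, a tissue rich in mitochondria, summed to 49.5 to 50.6 cpm in these ovaries and 1683 to 4048 in these heads, all 4 were lower in ovary, and their part in these differences was not tested.

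Whether the effect of mod07570/L8 differs between ovary and head was tested as an interaction over the 12 libraries of both genotypes and tissues. The interaction was positive, meaning a more positive change in ovary, in 10 of 73 members and negative in none. Among 10609 features 18.1% were positive and 6.46% negative, so positive calls were a smaller share of the members than of all features. The members' median was 0.27 against 0.18 for all features. With total-count scaling 2 members passed (14.1% of features), with unique counts 4 (9.89%), and without the first mod07570/+ head library 24 (20.9%). Without 1 of the ovary libraries 2 to 6 passed, beside 1581 to 1653 of 10524 to 10569 features. Without the first or second mod07570/L8 head library 4 and 6 passed, beside 15.7% of features each time. mRpL45, a mitochondria-specific protein, was the only member that passed in each of the 18 alternatives, at 0.44 ± 0.10 (edgeR, adjusted p = 0.00707). The share of all features that passed in each is not given here. mRpL45 was then looked at by library. It had 25.9, 25.1 and 25.6 cpm in mod07570/L8 heads against 31.0, 33.9 and 32.0 in mod07570/+ heads, without overlap, while the ovaries overlapped, at 77.5, 74.7 and 80.8 against 72.8, 78.5 and 75.6.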

How the data were processed

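RNA of 21 libraries (7 groups of 3) was analysed. The ChIP, input and immunoprecipitated small RNA samples were not used. Per the study's methods, the authors mapped reads with Bowtie 2 to RefSeq transcripts and transposon consensus sequences and quantified them with eXpress, with versions not given in the sources used here, so fragments shared between transcripts are divided by the model. The deposited estimated counts, rounded to whole numbers, were summed per gene symbol over 34035 of 34437 RefSeq transcripts that matched the reference gene table (Release 6, used for names and gene order only). The deposited unique counts (fragments mapping to 1 transcript) served as an alternative. The deposited TPM values were summed per gene and used for levels only, and the deposited effective lengths for 1 alternative.

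Features with at least 1 cpm in 3 libraries of a comparison were tested with edgeR 4.0.16 in R 4.3.3 (glmQLFit and glmQLFTest, TMM scaling, group as the only term), and p-values were adjusted over all features with a threshold of 0.05. The standard error is the size of the log2 fold change divided by the square root of F. Only the libraries of a comparison entered its fit, and the interaction used 12 libraries. The alternatives were total-count scaling, DESeq2 1.42.0, no filter, unique counts, the replicate number as a block, each library left out, and, chosen after seeing the data, effective lengths as offsets. The code was tested on simulated data. Summaries and plots used Python 3.11.15, numpy 2.4.6, pandas 2.3.3 and matplotlib 3.10.9.

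Members and lists were chosen with earlier results of these data known. Named genes were the 6 largest rises and falls past the threshold in mod07570/L8 against mod07570/+ ovaries, the 3 largest in each other comparison, the 5 highest and 5 lowest by TPM, any member over 2-fold within a tissue, tko and bonsai, and the extremes of the related lists. Genes named beyond this rule were chosen after their values were seen. Counting error was not given separately, since replicates cover it. 70 of 73 members shared no ambiguous fragment with a sequence outside their own symbol. mRpL13 shared some with CG10602 and mRpL53 with CG33155. mRpS16, with 3.64% of its counts unique, shared some with 2 transcripts that matched no gene symbol. Whether these belong to mRpS16 or to another gene is not known here, so its values carry that limit.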

Additional observations from a re-analysis of the deposited data

Results flagged for a closer look

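The change in mod07570/L8 against mod07570/+ differed between ovary and head for 10 of 73 members, each with the more positive value in ovary. The interaction test used 12 libraries (edgeR, adjusted over 10609 features). Positive calls were a smaller share of the members than the 18.1% among all features. The difference between the log2 fold changes was 0.68 for mRpL53 (adjusted p = 0.0431), 0.61 for mRpL20 (0.0282), 0.60 for mRpL44 (0.0184), 0.56 for mRpS14 (0.00423) and 0.49 for mRpL19 (0.0309). It was 0.48 for mRpS18A (0.0283), 0.44 for mRpL45 (0.00707), 0.43 for mRpL54 (0.0348), 0.36 for mRpL9 (0.0454) and 0.29 for mRpS9 (0.0276).

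These differences arose in unlike ways. In mRpL19 and mRpL20 the ovary values were 0.53 and 0.50 and the head values 0.06 and -0.09. In mRpL53, mRpS14 and mRpS18A the head values were -0.67, -0.41 and -0.53, none past the threshold on its own, and the ovary values -0.01, 0.14 and -0.07. mRpL44 had 0.28 in ovary and -0.30 in head. 18.1% of all features also had a positive interaction, and only mRpL45 passed in all 18 alternatives. The germline RNA of the second mod07570/+ head library (296 cpm against 16.1 and 26.0) bears on the same contrast, and without that library 9 members passed upwards and 1 downwards, where 21.6% and 17.0% of 10531 features did and the median of all features was 0.07 instead of 0.18.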

How the results depend on the processing

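Member counts depended on scaling and kind of count. For mod07570/L8 against mod07570/+ ovaries the main fit gave 34 higher, 2 lower and a median of 0.134, beside 38.5% and 39.1% of features. Total-count scaling gave 21, 12 and 0.043, beside 32% and 47.4%. Unique counts gave 20, 4 and 0.067, beside 27.7% and 28.1%. DESeq2 gave 30 and 0, beside 36% and 36.6%. The effective length offset gave 32 and 1, beside 38.1% and 38.8%. Leaving out 1 library gave 29 to 39 higher, 0 to 2 lower and medians of 0.119 to 0.144. In these fits 2931 to 3068 of 8066 to 8131 features were higher and 2956 to 3034 lower. For modL8/+ against mod07570/+ ovaries (12, 1), total-count scaling gave 9 and 2, beside 18.5% and 24.7% of features. Unique counts gave 7 and 2, beside 9.96% and 9.99%. DESeq2 gave 6 higher, beside 17.5%, and the offset 7 higher, beside 19.6%. With 1 library left out there were 5 to 13 higher, 1 lower and medians of 0.041 to 0.060. In these fits 1461 to 1608 of 7902 to 7990 features were higher and 1319 to 1505 lower. For mod07570/L8 against modL8/+ ovaries (32, 5, median 0.092), total-count scaling gave 12, 13 and 0.022, beside 30.1% and 44.3% of features. Unique counts gave 17 higher and 0.054, beside 24.9%. No filter gave 8 lower and 0.067, beside 3329 of 12346 features. DESeq2 gave 3 lower, beside 33.4%. With 1 library left out there were 22 to 29 higher, 3 to 5 lower and medians of 0.078 to 0.115. In these fits 2637 to 2822 of 7954 to 8104 features were higher and 2749 to 2878 lower. In heads 0 members passed in any alternative, with medians without 1 library from -0.092 to 0.012 for mod07570/L8 against mod07570/+ and from -0.093 to 0.196 for EEO. For ovary against head, DESeq2 gave 3 lower, beside 50.5% of features, and total-count scaling a median of 1.577. With 1 library left out there were 51 to 68 higher, 0 to 3 lower and medians of 0.558 to 1.06. In these fits 3551 to 4014 of 8124 to 10034 features were higher and 3261 to 4652 lower. For the interaction (10 positive), total-count scaling gave 2, beside 14.1% of features, and unique counts 4, beside 9.89%. No filter gave 6, beside 1776 of 14567 features, and DESeq2 1 negative, beside 13.3%. With 1 library left out there were 2 to 24 positive, 0 to 1 negative and medians of 0.149 to 0.276. In these fits 1581 to 2277 of 10519 to 10569 features were positive and 499 to 1791 negative. tko turned from 0.06 to -0.033 in mod07570/L8 against mod07570/+ ovaries with total-count scaling, and of the 682 alternative values of single named genes 604 kept direction and call, 77 lost the call and this 1 turned. By cpm, 2 of the 5 highest members by TPM stayed. Fits without a head library also covered fewer features. The causes of all these differences were not tested.

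Replicate numbers share only a number between groups. Same-numbered ovary libraries had correlations of their deviations between -0.065 and 0.014, and heads of mod07570/L8 and mod07570/+ 0.155, 0.042 and 0.199, and heads with and without EEO 0.191, -0.025 and 0.269. With the replicate number as a block, mod07570/L8 against mod07570/+ ovaries gave 33 higher and 1 lower, beside 3134 and 3182 of 8295 features. The interaction gave 6 positive, beside 1755 of 10609. modL8/+ against mod07570/+ gave 11 and 1, beside 1647 and 1545 of 8052. mod07570/L8 against modL8/+ gave 32 and 5, beside 2955 and 2957 of 8191. Ovary against head gave 64 and 0, beside 4220 and 4726 of 10301, and both head comparisons gave 0.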
